A study of Mus musculus with 4 samples.

Results

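The Myc, Max and Mxd network was followed in primary mouse embryonic fibroblasts (MEFs), connective tissue cells grown directly from embryos, with and without the histone demethylase RBP2. Its 10 genes are Myc, Mycn, Mycl, Max, Mxd1, Mxd3, Mxd4, Mxi1, Mnt and Mga. All probe sets annotated with exactly 1 of these symbols were taken, which gave 27 of the 45101 probe sets on the array. A probe set combines the signals of several short oligonucleotides. The network was chosen by the measured signal of Mycn, which was lower in both RBP2-null lines on 1 probe set, so the values of Mycn between genotypes are a description and carry no test.

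The study compared 2 wild-type lines with 2 lines labelled RBP2-/-, called RBP2-null here, each measured at passage 3 on 1 Affymetrix array. The lines are described as independent, and the labels give no strain, sex, embryo age, treatment or litter, nor the part of the gene that was deleted. RBP2, the product of Kdm5a, was found as a partner of the retinoblastoma protein and erases the methyl marks that lysine 4 of histone H3 carries at active promoters. A p-value from 2 lines against 2 reflects no more than the spread among these cultures, and an exact permutation test could not go below 0.333.

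Proteins of this network share a helix-loop-helix and leucine zipper domain and bind the DNA motif called the E-box as pairs with Max. Myc, Mycn and Mycl paired with Max recruit co-activators and drive genes of growth, nucleotide synthesis and ribosome production, while Mxd proteins, Mxi1 and Mnt paired with Max recruit Sin3 co-repressors to the same motif. Myc is the usual family member of dividing fibroblasts, Mycn is best known from embryonic and neural progenitors, and Mxd proteins tend to rise as cells leave the cycle.

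All values below are log2(signal + 9) after quantile normalization unless a deposited signal is named, so differences of dim probe sets are understated. Kdm5a, the targeted gene, had 6.72 and 7.65 in wild-type lines 1 and 2 and 6.40 and 6.49 in RBP2-null lines 1 and 2 on its brightest probe set. The RBP2-null values lay below both wild-type ones, with a limma adjusted p of 1.00, and a probe set outside the deleted part would not check the labels. Wild-type line 1 stood apart, with a correlation across kept probe sets of 0.923 to 0.925 with the other arrays, where the highest among those was 0.963. All 12 fibroblast markers were bright enough to be kept, with a summed normalized signal of 33077 and 39325 in wild type and 34632 and 39467 in RBP2-null cells. Of the pluripotent and germ cell markers, 1 of 8 was kept, and Pou5f1 had at most a normalized signal of 1.88. Macrophage markers summed to 567 and 422 in wild type and 348 and 374 in RBP2-null cells, with 6 of 9 kept and Ptprc, Aif1 and Cd68 too dim, so both RBP2-null sums were lower. Sums of endothelial, epithelial and skeletal muscle markers overlapped between genotypes. Of the kept epithelial markers 1 had an estimate above 0 and 4 below. Krt5, Krt8 and Krt14 had both RBP2-null lines below both wild-type lines, Krt18 had both above, and Epcam, the brightest, overlapped. Of the kept muscle markers, Myod1 had both RBP2-null lines below, while Des and Acta1, the brightest, overlapped. Over all genes on their brightest kept probe set 15.8% had both RBP2-null arrays below and 13.4% above. The part of other cell types in the values below was not tested.

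Mycn had lower signal in RBP2-null cells on 1 of its 3 probe sets. On this probe set, 1425923_at, the deposited signal was 74.6 and 71.2 in wild type, against 9.8 and 35.9 in RBP2-null cells. After normalization the log2 values were 7.00 and 6.30 in wild type and 4.49 and 5.05 in RBP2-null cells. Both RBP2-null lines were below both wild-type lines, before and after normalization, and RBP2-null line 1 was the lowest. The group means were 6.65 ± 0.49 (SD, n = 2) and 4.77 ± 0.40 (SD, n = 2), a difference of -1.88 on the log2 scale. The mean normalized signal was 94.6 against 18.8, or 5.02 times higher in wild type. The normalized signals of RBP2-null lines 1 and 2 were 13.5 and 24.2, near the pseudocount of 9. The size of this ratio therefore rests on dim signals. In RNA from whole cultures, fewer expressing cells and less RNA per cell cannot be told apart. With any 1 array left out the log2 difference lay between -2.23 and -1.53, and with a pseudocount of 50 in place of 9 it was -1.05. Since the groups did not overlap, neither change could turn the sign.

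The other Mycn probe sets did not show this difference. On 1417155_at the log2 values were 4.02 and 5.26 in wild type and 5.07 and 4.91 in RBP2-null cells. Wild-type line 1 was low there, the groups overlapped, and the difference was 0.35, or -0.27 without that line. On 1425922_a_at, which was too dim to be kept, the values were 5.43 and 3.38 in wild type and 3.46 and 3.35 in RBP2-null cells. Wild-type line 1 alone stood out there, since the deposited signal was 26.0 in it and 1.4, 1.4 and 1.6 on the other arrays. The annotation gives this dim probe set and the one that was lower in RBP2-null cells the same sequence record, and 1417155_at another. Among other cell types that express Mycn, the neural markers summed to a normalized signal of 1065 and 1240 in wild type and 1014 and 1268 in RBP2-null cells, with 9 of 12 kept and Sox2 and Olig2 too dim. That sum overlapped between genotypes. Its brightest marker was Nes, with 656 and 513 in wild type and 520 and 451 in RBP2-null cells. Of the 9 kept neural markers, 5 had estimates above 0 and 4 below. Pax6, Tubb3 and Dcx, at normalized signals of 36.1 or less, had both RBP2-null lines above both wild-type lines, and the other kept ones overlapped. Over all genes 13.4% had both RBP2-null arrays above. The part of neural cells in the Mycn values was not tested.

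**Figure D1:**
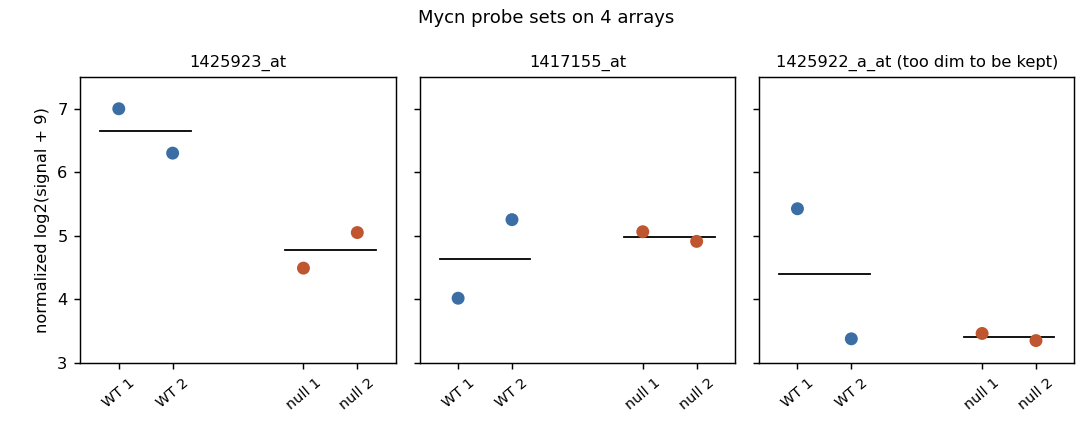
Normalized log2(signal + 9) of the 3 Mycn probe sets on each array, with wild-type (WT) lines in blue, RBP2-null lines in orange and a bar at each group mean of 2 lines. On 1425923_at both RBP2-null lines (4.49 and 5.05) lie below both wild-type lines (7.00 and 6.30), on 1417155_at the groups overlap, and on 1425922_a_at only wild-type line 1 is high.

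The genes whose pattern over the 4 arrays was nearest to that of 1425923_at were Ahcyl2, Acsm2, Tlr8, 1700071K01Rik and Zfp865. Nearness was the Euclidean distance between log2 values after subtracting each probe set's mean, over 23020 kept probe sets with 1 symbol, and was 0.17, 0.34, 0.34, 0.41 and 0.44 in that order. Ahcyl2 on this probe set had 6.17 and 5.54 in wild type and 3.67 and 4.43 in RBP2-null cells. Other kept probe sets of these genes did not follow it. Ahcyl2 had a difference of -1.80 between genotypes on the matching probe set, but -0.013 on its brightest and 0.12 on another. Zfp865 had -1.48 on the matching probe set and -0.24 on its brightest, and Acsm2 had -1.65 and, on a dimmer one, -0.11. Tlr8 and 1700071K01Rik had no other kept probe set. On the matching probe sets, RBP2-null line 1 had 3.67, 3.69, 3.64 and 3.86 for Ahcyl2, Acsm2, Tlr8 and 1700071K01Rik, signals near the pseudocount. Zfp865 had 4.36 there. These genes were picked for the likeness out of many, so it is a description of 4 arrays.

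The bases before the Mycn start were read to show which known motifs lie there, because Mycn chose this network and RBP2 acts at promoters. The sequences come from RefSeq on GRCm38.p6 and cover the 250 bases before the annotated start. Mycl is shown as the related gene and Mnt as a repressor member with an E-box. The motifs searched on both strands were the E-box CACGTG, the motif CCGCCC that the ARID domain of RBP2 is known to bind and that is also part of the Sp1 site, and the E2F motifs TTTGGCGC and TTTCGCGC. Capitals mark every match.
Mycn, chr12:12941837-12942086, minus strand: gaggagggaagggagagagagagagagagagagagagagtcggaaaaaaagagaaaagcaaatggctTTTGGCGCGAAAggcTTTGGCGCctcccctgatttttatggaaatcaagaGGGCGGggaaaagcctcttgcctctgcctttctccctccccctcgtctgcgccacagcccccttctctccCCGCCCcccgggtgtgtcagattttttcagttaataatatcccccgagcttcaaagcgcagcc
Mycl, chr4:122995681-122995930, plus strand: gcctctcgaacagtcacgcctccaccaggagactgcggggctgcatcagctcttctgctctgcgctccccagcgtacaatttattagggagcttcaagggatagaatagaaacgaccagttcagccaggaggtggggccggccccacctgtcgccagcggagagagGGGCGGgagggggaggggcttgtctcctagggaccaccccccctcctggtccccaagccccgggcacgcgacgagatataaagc
Mnt, chr11:74830674-74830923, plus strand: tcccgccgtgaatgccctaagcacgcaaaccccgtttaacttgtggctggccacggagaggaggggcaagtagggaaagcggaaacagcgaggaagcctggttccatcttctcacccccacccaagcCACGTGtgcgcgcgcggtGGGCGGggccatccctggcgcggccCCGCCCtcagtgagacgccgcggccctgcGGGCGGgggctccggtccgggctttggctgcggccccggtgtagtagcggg

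The Mycn window held 3 E2F motif matches, of which a TTTGGCGC match and a TTTCGCGC match on the other strand overlap, and no E-box. They lie 161 to 183 bases before the start. An E2F motif of either form was found in 0.654% of the 32851 windows of the same length, and in 1 of the 9 members with a window. Myc had no window, so its motifs were not searched. CCGCCC was found 2 times in the Mycn window, 1 time in that of Mycl and 3 times in that of Mnt. It was present in 8 of the 9 members, all but Max, and in 32.7% of all windows. The E-box was found for Mnt and Mxd4, that is 2 of 9 members, against 6.02% of all windows. Mxi1 had 3 windows and each other member with a window had 1. A match is a description of letters, and binding was not measured here.

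Of the 24 probe sets of the other 9 members, 17 were bright enough to be kept, covering 8 genes, and 0 passed the threshold of an adjusted p under 0.05 in limma. At an unadjusted limma p under 0.05 there were also 0 of the 17, and every adjusted p was 1.00. Over all 27022 kept probe sets 1 passed, or 0.0037%, and 2.96% had an unadjusted p under 0.05. Estimates for 9 of the 17 were positive and for 8 negative. Their median log2 fold change was 0.031, with a range from -0.33 to 0.47. The median over all kept probe sets was 0.0029. Both RBP2-null arrays lay above both wild-type arrays for 2 of the 17 and below for 1, where the background over all kept probe sets was 14.6% and 14.9%, or 29.5% in either direction. The share of members with separated groups was therefore no higher than that of all probe sets.

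Myc, the activator of growth genes, had overlapping groups on its single probe set. Its log2 signal was 8.70 and 8.33 in wild-type lines 1 and 2 and 8.96 and 8.34 in RBP2-null lines 1 and 2. Line 1 was the higher one in both genotypes. The log2 fold change of Myc was 0.13 with a 95% interval from -0.48 to 0.75, and it turned to -0.17 without RBP2-null line 1. In deposited signal both RBP2-null lines were above both wild-type lines, with 243.7 and 323.7 in wild type and 401.1 and 491.9 in RBP2-null cells, an order that scaling the arrays to a common level removed.

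Mycl, the family member named for lung tumours, had slightly lower values in both RBP2-null lines on its brightest probe set, though without scaling the difference was 0.015, against a shift of 0.38 over all probe sets. The log2 values were 5.53 and 5.54 in wild type and 5.35 and 5.30 in RBP2-null cells. The groups did not overlap, and lines of 1 genotype lay closer together than for any other kept probe set of the network. The log2 fold change of Mycl was -0.21 with a 95% interval from -1.03 to 0.61 and a limma adjusted p of 1.00. A dimmer Mycl probe set had -0.33 with overlapping groups. The third, too dim to be kept, had 4.42 and 3.89 in wild type and 5.39 and 4.35 in RBP2-null cells, also overlapping.

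Max, the shared partner of the network, had 5.67 and 6.84 in wild type and 6.45 and 6.46 in RBP2-null cells. The RBP2-null lines lay together between the wild-type lines. The log2 fold change of Max was 0.20 with a 95% interval from -0.69 to 1.10, and it was -0.38 without wild-type line 1 and 0.79 without wild-type line 2.

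**Figure D2:**
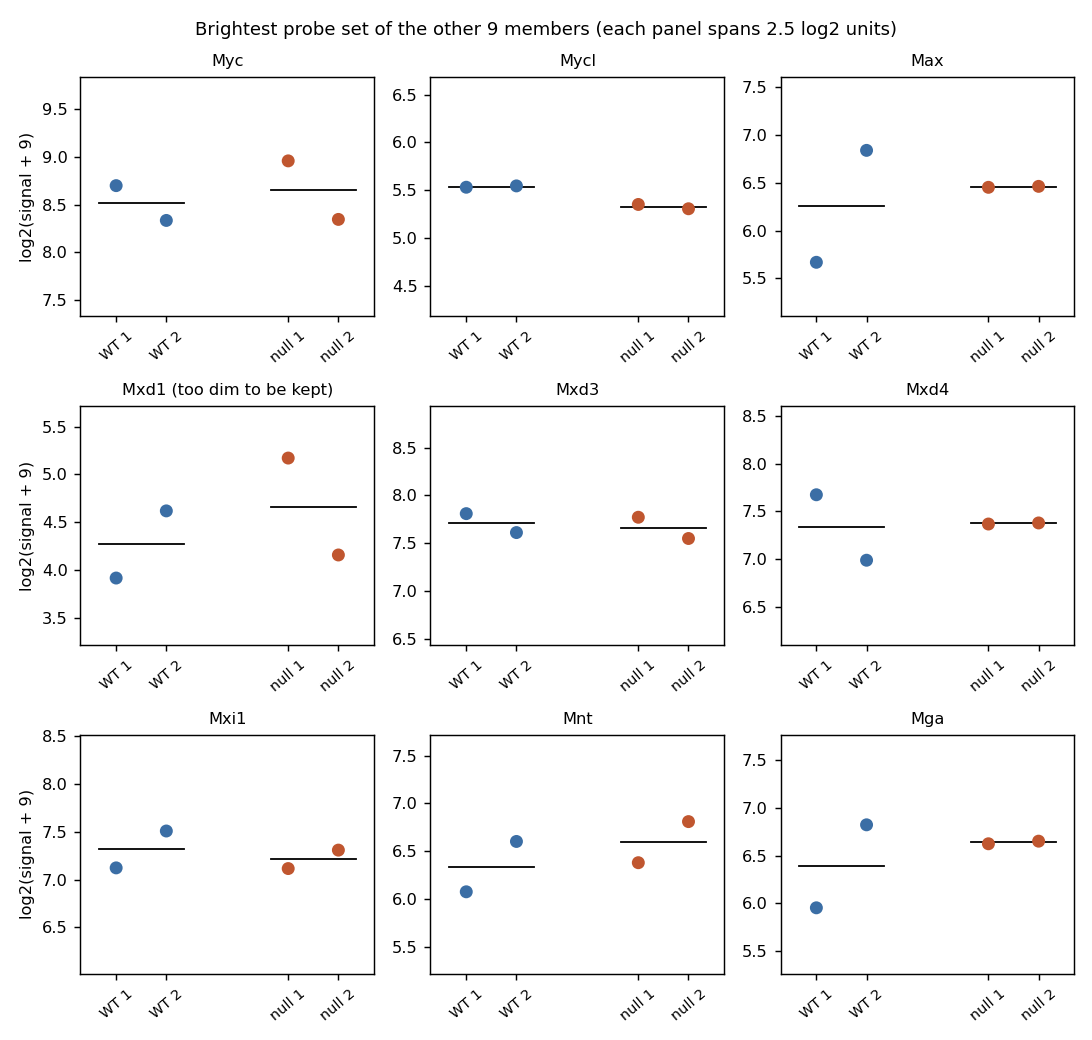
Normalized log2(signal + 9) of the brightest probe set of each of the other 9 members on each array, with wild-type (WT) lines in blue, RBP2-null lines in orange and a bar at each group mean of 2 lines. Mycl is the only one of the 9 whose genotypes do not overlap (5.53 and 5.54 against 5.35 and 5.30), and for Max, Mxd4 and Mga both RBP2-null lines lie between the wild-type lines. Over all genes on their brightest kept probe set, 13.4% had both RBP2-null arrays above both wild-type arrays and 15.8% below.

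Among the Mxd repressors, Mxd1 was too dim to be kept on all 3 probe sets. Its brightest had 3.92 and 4.62 in wild type and 5.17 and 4.16 in RBP2-null cells, with overlapping groups and no test. Another Mxd1 probe set had 3.84 and 4.10 in wild type and 4.54 and 4.20 in RBP2-null cells. Both RBP2-null lines were above both wild-type lines there, at a normalized signal between 5.33 and 14.3, near the pseudocount. The third had 3.51 and 3.52 in wild type and 3.62 and 3.55 in RBP2-null cells, also both above, but its deposited signal, at most 3.8, overlapped between genotypes.

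Mxd3, a repressor expressed in cells in S phase, had 7.81 and 7.61 in wild type and 7.77 and 7.55 in RBP2-null cells. The groups overlapped almost fully, and line 1 was the higher one in both. The log2 fold change of Mxd3 was -0.050 with a 95% interval from -0.60 to 0.50, and dimmer Mxd3 probe sets had -0.11 and 0.059.

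Mxd4 had 7.67 and 6.99 in wild type and 7.37 and 7.38 in RBP2-null cells, so that both RBP2-null lines lay between the wild-type lines. Its log2 fold change was 0.042 with a 95% interval from -0.62 to 0.71. The 3 other Mxd4 probe sets had 0.031, 0.19 and -0.022, of which the one with 0.19 had both RBP2-null lines above, with 5.68 and 5.54 in wild type and 5.69 and 5.92 in RBP2-null cells. That separation between 5.68 and 5.69 was far within the gap between lines.

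Mxi1, a repressor of the same group, had 7.12 and 7.51 in wild type and 7.12 and 7.31 in RBP2-null cells. Line 2 was the higher one in both genotypes, and the log2 fold change was -0.10 with a 95% interval from -0.70 to 0.50. A dimmer Mxi1 probe set had -0.15, with RBP2-null values of 5.31 and 6.35 on either side of the wild-type ones.

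Mnt, the repressor that opposes Myc in dividing cells, had 6.08 and 6.60 in wild type and 6.38 and 6.81 in RBP2-null cells. The groups overlapped, and the log2 fold change of Mnt was 0.26 with a 95% interval from -0.46 to 0.97, or -0.0073 without wild-type line 1. The other Mnt probe set, below the filter, had 3.38 and 4.74 in wild type and 4.04 and 4.69 in RBP2-null cells, again overlapping.

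Mga, a large Max partner that also carries a T-box domain and belongs to a Polycomb complex, gave estimates on both sides of 0. Its brightest probe set had 5.95 and 6.82 in wild type and 6.62 and 6.65 in RBP2-null cells, and the log2 fold change was 0.25 with a 95% interval from -0.52 to 1.02. Without wild-type line 1 it was -0.18. On 1431232_a_at the values were 5.50 and 6.04 in wild type and 6.19 and 6.28 in RBP2-null cells. Both RBP2-null lines were above, by 0.47 on the log2 scale, with a limma adjusted p of 1.00. On the remaining kept probe set the log2 fold change was -0.18. On 1442356_at, too dim to be kept, the deposited signal was 11.5 and 17.0 in wild type and 0.8 and 2.6 in RBP2-null cells, and both RBP2-null lines were below. At the normalized log2 level those values were 4.55 and 4.69 against 3.34 and 3.45, with no test.

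**Figure D3:**
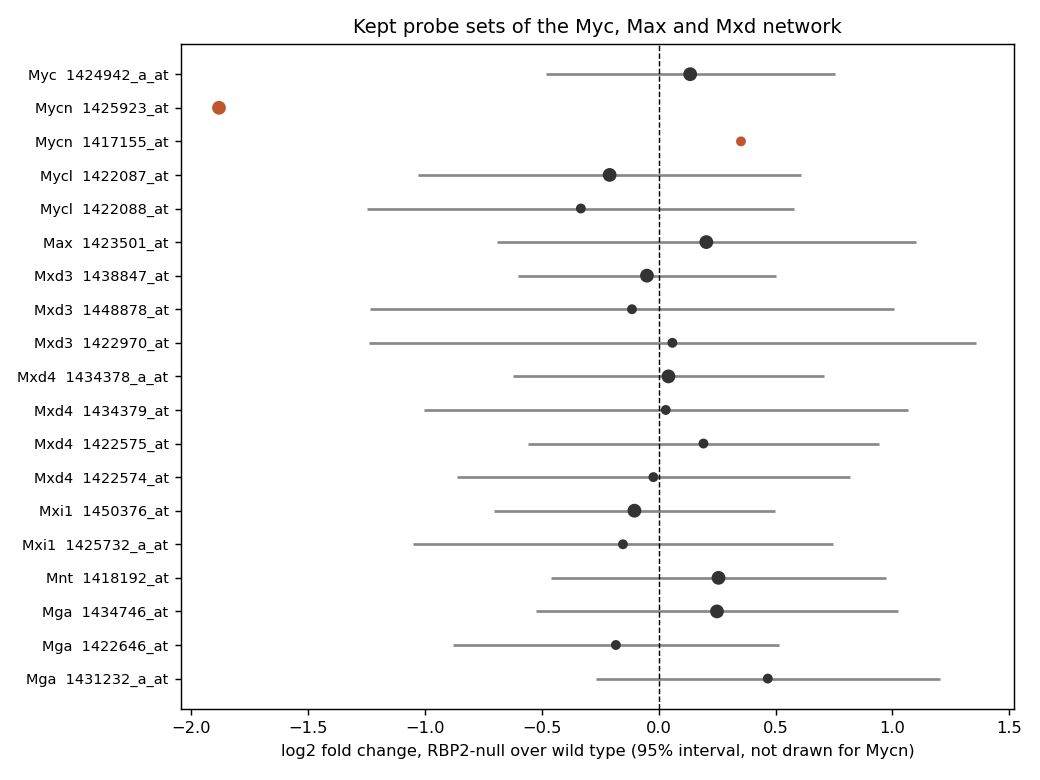
Log2 fold change of RBP2-null over wild type for the 19 kept probe sets of the network from limma, with 95% intervals as lines for all but Mycn, whose values chose the network, and large points for the brightest probe set of each gene. Every interval drawn spans 0, and the 17 probe sets of other members lie between -0.33 and 0.47.

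Of the 6 members with more than 1 kept probe set, 4 had kept probe sets on both sides of 0, namely Mycn, Mxd3, Mxd4 and Mga. The gap between lines of 1 genotype was larger than the genotype difference for 14 of the 17 kept probe sets of members other than Mycn, against 70.5% of all kept probe sets. With 2 lines a genotype, the gap is the larger one where groups overlap, so this count restates the overlap and is no separate result. The median gap for the 17, averaged over both genotypes, was 0.42 on the log2 scale, and the median size of the genotype difference was 0.15. Over all kept probe sets these medians were 0.36 and 0.21. On 1425923_at of Mycn the gap was 0.63 and the genotype difference 1.88 in size, while on 1417155_at they were 0.69 and 0.35. The order on 1425923_at was fixed when Mycn was chosen for lower values in both RBP2-null lines. Line 2 exceeded line 1 in both genotypes for 7 of the 17 and fell short in both for 5, where all kept probe sets had 27.3% and 28.1%. The line numbers have no stated meaning, so this only shows how far apart lines lay.

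**Figure D4:**
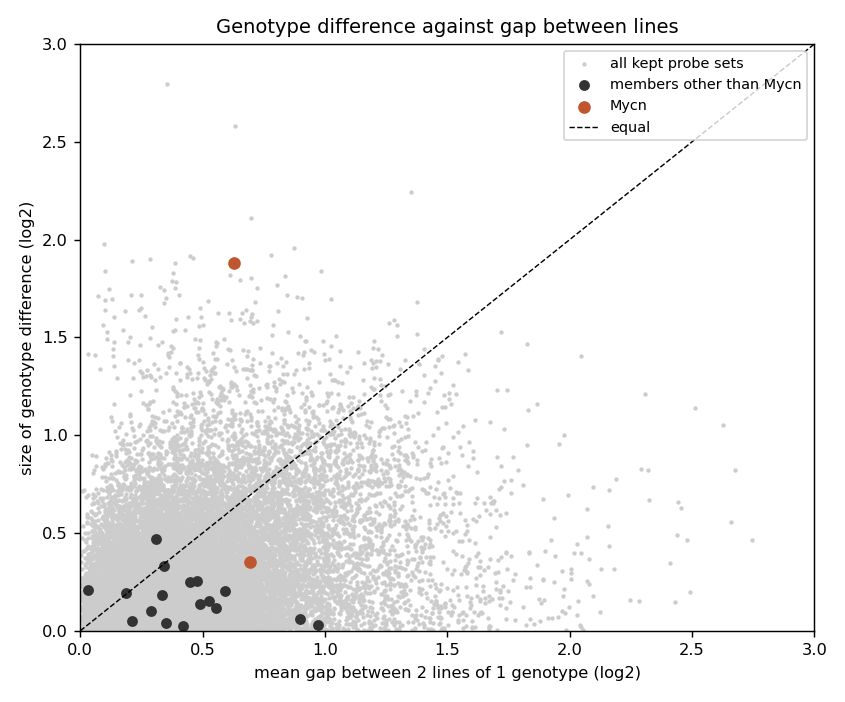
Size of the genotype difference against the mean gap between the 2 lines of 1 genotype, both in log2 units, for all kept probe sets (grey), the 17 of members other than Mycn (black) and the kept ones of Mycn (orange), with a dashed line of equality and 7 probe sets beyond the axes. With 2 lines a genotype, a probe set lies above the line where its groups do not overlap and below it where they do. Most black points lie below. The place of 1425923_at of Mycn above the line, at 0.63 and 1.88, was fixed when Mycn was chosen for lower values in both RBP2-null lines.

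Genes that work with the network were taken from 7 lists, of whose 115 genes 102 had a kept probe set. On the brightest probe set of each gene 0 of the 102 passed the threshold in limma, and 2, Slc1a5 and Gsk3a, had an unadjusted p under 0.05, where the background over 13115 genes was 0.00762% and 2.73%. Estimates were above 0 for 54 and below for 48, where all genes had 48.6% above and 51.4% below. The list genes had a median of 0.011, and all genes one of -0.010. Both RBP2-null arrays were above both wild-type arrays for 6 of the 102 and below for 13, where the shares over all genes were 13.4% and 15.8%.

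Targets that Myc activates numbered 38 kept genes, 19 with positive and 19 with negative estimates and a median log2 fold change of 0.0022. Slc1a5, the glutamine transporter, had 7.13 and 7.59 in wild type and 6.26 and 5.82 in RBP2-null cells. Both RBP2-null lines were below both wild-type lines, with a log2 fold change of -1.32, a standard error of 0.30 and a limma adjusted p of 1.00. The dimmer Slc1a5 probe set had -0.89 (standard error 0.45). Slc1a5 was among the genes with low values in earlier results of these arrays when the list was written, so it is no independent support. Odc1, the first enzyme of polyamine synthesis, had 0.25, and nucleolin (Ncl) and Cad, an enzyme of pyrimidine synthesis, had -0.11 and -0.046. Gnl3, a nucleolar GTPase, had -0.30, and Ppat and Mybbp1a had 0.66 and 0.48, or 0.087 and 0.071 without wild-type line 1.

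Targets that Myc represses had estimates above 0 for 8 of 12 kept genes and below for 4, with a median of 0.049. The CDK inhibitor Cdkn1a had a log2 fold change of 0.044, and Cebpa, a factor of fat and myeloid cells, had 0.71 (standard error 0.49), which fell to 0.18 when wild-type line 1 was left out. Gadd45a, Klf6 and Pdgfrb had 0.18, 0.13 and -0.24. None of the 12 had groups that did not overlap, where over all genes 13.4% had both RBP2-null arrays above and 15.8% below.

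Co-activators of Myc had estimates above 0 for 8 of 16 kept genes, with a median of -0.014. Trrap, the scaffold that Myc uses to recruit acetyltransferases, had -0.22, its acetyltransferase partner Kat5 had -0.30, and Actl6a and Smarcb1 of chromatin remodelling complexes had 0.23 and -0.28. Kat5 had 0.18 on a dimmer probe set. The Sin3 co-repressors had estimates above 0 for 7 of 13 and a median of 0.0045. Hdac1 had -0.25, Sap30 had 0.26, Arid4a had 0.43 and Ing2 had 0.67, or -0.33 without wild-type line 1.

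Genes whose products affect how long Myc and Mycn proteins last had estimates above 0 for 8 of 16 and a median of 0.0087. Gsk3a, a kinase of the family that marks Myc for destruction, had 9.56 and 9.51 in wild type and 8.79 and 9.16 in RBP2-null cells. Both RBP2-null lines were below, with a log2 fold change of -0.56, a standard error of 0.22 and a limma adjusted p of 1.00. Fbxw7, the ubiquitin ligase subunit that binds Myc so marked, had 0.53, or 0.16 without RBP2-null line 1. Btrc and Trim32, other ubiquitin ligases, had -0.62 and -0.43, and Btrc had 0.0028 without RBP2-null line 2.

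The Mlx arm, a parallel set of factors that sense glucose, had 3 of 5 estimates above 0 and a median of 0.016. Mlx had -0.21, its partner Mlxipl had 0.91 with a standard error of 0.60, and their targets Txnip and Arrdc4 had 0.12 and -0.40. Beside Mycn on the chromosome, Ddx1 and Nbas had 0.36 and -0.31, and Ddx1 had 0.016 without wild-type line 1. Dimmer probe sets of both had the other sign, at -0.097 for Ddx1 and 0.050 for Nbas. Genes of dividing cells had a positive estimate for 2 of 7 kept genes and a median of -0.14. They had a summed normalized signal of 5044 and 5385 in wild type and 4704 and 4660 in RBP2-null cells. Their part in the values of the network was not tested.

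**Figure D5:**
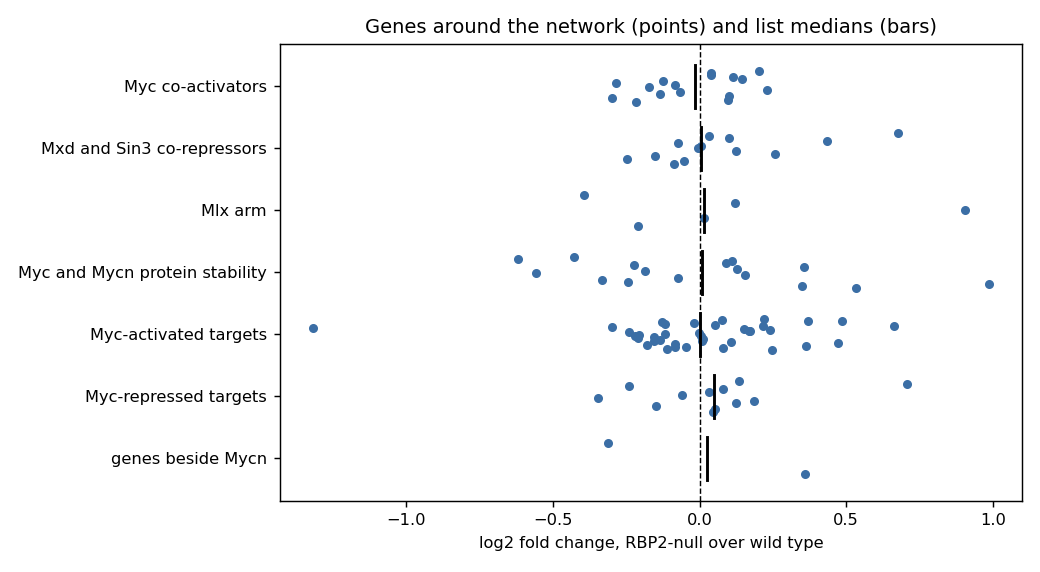
Log2 fold change of RBP2-null over wild type on the brightest kept probe set of each list gene (points), with the median of each list as a black bar. The medians lie between -0.014 and 0.049, and the point farthest to the left is Slc1a5 at -1.32.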

How the data were processed

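For each of 4 arrays the authors deposited a linear intensity per probe set. Probe summary and background correction: not given in the sources used here. Trimmed means of the deposited intensities differed by up to 2.46 times, so arrays were quantile normalized after 64 control probe sets were left out. A pseudocount of 9, the 25th percentile, was added before log2, and the upper 60% of probe sets by mean over all arrays were kept.

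The genotypes were compared by limma 3.58.1 (R 4.3.3) with a mean-dependent prior variance, two-sided, with Benjamini-Hochberg adjustment over all 27022 kept probe sets. With 4 arrays, their number limits the precision. Gene symbols came from a platform annotation, updated by Entrez number through RefSeq, which matched all 27 probe sets. The probe set with the highest mean stands for a gene in lists. Named are all members, up to 4 genes per list with the smallest unadjusted p, Kdm5a and the 5 genes nearest to Mycn. Further list genes (Odc1, Ncl, Cad and Cdkn1a) were named as familiar targets after their values were seen. The members and lists were chosen with earlier results of these data known. The fit was tested on simulated data. Alternatives covered the pseudocount, filter, scaling, variance model, replicate block, other probe sets and each array left out.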

Additional observations from a re-analysis of the deposited data

How the results depend on the processing

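Mycn was given no test, and no other member and no list gene passed the threshold under any alternative, except Slc1a5 with the replicate number as a block (adjusted p of 0.0293), where 1 list gene and 46 of all probe sets passed. The numbers were not taken as pairs: the labels give them no meaning, and with 2 lines a genotype the correlation of deviations was 0.109, which the design makes equal for both numbers. Over all probe sets the count was 1, 0 without the filter, without scaling and with a constant prior variance, 2 with median-centred arrays, and from 0 to 41 with 1 array left out. The 41 came without wild-type replicate 2. Leaving out wild-type replicate 1 gave 2, and leaving out RBP2-null replicate 2 gave 0. Of 543 single values recomputed, 52 turned sign, 25 of them under scalings that leave a shift common to all probe sets and 27 with 1 array left out. Leaving out an array turned 7 of the 8 kept members other than Mycn, all but Mycl. The groups of Mycl did not overlap, so leaving out 1 array could not turn its sign. Mycn on its brightest probe set kept its direction, between -2.27 and -1.05 across pseudocounts of 1 and 50. Its groups did not overlap and its values chose the network, so neither a pseudocount nor 1 array left out could turn it. Without scaling, where the median of all probe sets was 0.38, the sign turned for Mycl (0.015), Mxd3 (0.41), Mxi1 (0.32), Trrap (0.27), Kat5 (0.11), Smarcb1 (0.20), Hdac1 (0.28), Mlx (0.21), Trim32 (0.015), Gnl3 (0.23), Pdgfrb (0.27), Nbas (0.11), Mxd3 on 1448878_at (0.055), Mxd4 on 1422574_at (0.21), Mxi1 on 1425732_a_at (0.18), Mga on 1422646_at (0.21). With median-centred arrays, where the median of all probe sets was 0.18, the sign turned for Mxd3 (0.21), Mxi1 (0.12), Trrap (0.072), Hdac1 (0.075), Mlx (0.012), Gnl3 (0.025), Pdgfrb (0.066), Mxd4 on 1422574_at (0.014), Mga on 1422646_at (0.0046). Leaving out 1 array in turn turned the sign of Max (from -0.38 to 0.79), Mxd3 (from -0.16 to 0.061), Mnt (from -0.0073 to 0.52), Mga (from -0.18 to 0.68), Actl6a (from -0.039 to 0.50), Ing2 (from -0.33 to 1.68), Gadd45a (from -0.049 to 0.42), Mycn on 1417155_at (from -0.27 to 0.97), Mxd4 on 1422574_at (from -0.29 to 0.25), Mga on 1422646_at (from -0.47 to 0.10), Myc (from -0.17 to 0.44), Mxd4 (from -0.30 to 0.38), Mxi1 (from -0.30 to 0.089), Pdgfrb (from -0.49 to 0.0023), Mxd3 on 1448878_at (from -0.57 to 0.35), Mxd3 on 1422970_at (from -0.47 to 0.59), Mxd4 on 1434379_at (from -0.71 to 0.77), Txnip (from -0.16 to 0.40), Mxi1 on 1425732_a_at (from -0.67 to 0.37), Trrap (from -0.47 to 0.037), Mlx (from -0.42 to 0.0018), Btrc (from -1.24 to 0.0028). Among members, another kept probe set had the other sign for Mycn (0.35), Mxd3 (0.059), Mxd4 (-0.022), Mga (-0.18). Of 15 named list genes with several kept probe sets, 8 had both signs (Actl6a, Btrc, Ddx1, Kat5, Klf6, Nbas, Ppat and Smarcb1). Values without scaling include the overall shift. The causes were not tested. Probe sets near the pseudocount, such as those of Mxd1, limit what can be read from dim genes.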
